A study of Mus musculus with 47 samples.

Results

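Heat shock proteins and their co-chaperones were followed across the striatum of mice that carry the Q140 allele, a model of Huntington's disease, alone or together with loss of Ccdc82. The members were all genes of the count table named as J proteins (Dnaja, Dnajb and Dnajc), Hsp70 and Hsp110 proteins (Hspa and Hsph1), Hsp90 proteins, small heat shock proteins (Hspb), the chaperonins Hspd1, Hspe1, Tcp1 and Cct2 to Cct8, and the heat shock transcription factors Hsf1 and Hsf2. The names alone selected 81 of 48795 genes, though the families were chosen with earlier results of these data known. The file gives the name Hspa14 to 2 of these genes, ENSMUSG00000109865 and ENSMUSG00000051396, which overlap on the same strand and are kept apart here. RNA of the corpus striatum came from 47 mice of C57BL background aged 6 months. The groups were Q140 Ccdc82-/- with 7 mice, and Q140 Ccdc82+/-, Q140, Ccdc82-/-, Ccdc82+/- and wild type (WT) with 8 mice each. Each group held 4 females and 4 males, except that Q140 Ccdc82-/- held 3 females. Q140 is a knock-in of an expanded CAG repeat into Htt, which the labels give as heterozygous, and they do not say how Ccdc82 was altered. The mice of a Q140 group are compared with mice of the same Ccdc82 genotype without Q140.

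Heat shock proteins hold unfolded proteins and help them to fold, to be refolded or to be degraded. Hsp70 proteins bind and release clients in a cycle of ATP hydrolysis that J proteins start and that exchange factors such as the Hsp110 proteins reset, and Hsp90 proteins act later in folding. The ring-shaped chaperonin CCT, also called TRiC, encloses actin, tubulin and other proteins, and cells and model animals with expanded polyglutamine proteins have been much used to study how chaperones limit aggregation. Hsf1 drives the heat shock genes of the cytosol, while the unfolded protein response drives those of the endoplasmic reticulum (ER).

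Each library held 41.33 to 61.7 M counts on genes, of which the members took 0.702 to 0.922%. The labels were checked on Ccdc82 itself. Its lowest, median and highest levels were 3.67, 4.47 and 5.35 CPM (counts scaled by effective library size) in Q140 Ccdc82-/- mice and 3.92, 4.39 and 5.87 CPM in Ccdc82-/- mice. In the heterozygotes they were 7.27, 8.56 and 9.99 CPM with Q140 and 7.7, 8.49 and 9.19 CPM without it, against 10.1, 11.6 and 12.8 CPM in Q140 and 10.6, 12.3 and 12.9 CPM in WT mice. Htt had 183, 197 and 220 CPM in Q140 and 207, 216 and 230 CPM in WT mice, with reads of both alleles counted together. The summed level of 8 marker genes of medium spiny neurons (MSN), the main neurons of the striatum, was 5000 to 6250 CPM in Q140 and 8690 to 9830 CPM in WT mice. It was 5160 to 5770 CPM in Q140 Ccdc82+/- and 8580 to 9990 CPM in Ccdc82+/- mice, and 5210 to 5870 CPM in Q140 Ccdc82-/- and 8760 to 9520 CPM in Ccdc82-/- mice. Of the 8 markers, 7 fell and 1 rose in each Q140 comparison. In bulk tissue, fewer cells of a type and less RNA per cell cannot be told apart, and the part of this shift in the results that follow was not tested. Markers of endothelial and mural cells fell in 4, 6 and 5 of 7 cases in the comparisons against WT, Ccdc82+/- and Ccdc82-/- mice, markers of microglia in 2, 4 and 4 of 5, and immediate early genes in 6, 4 and 5 of 8, and none of these rose. Oligodendrocyte markers fell in 2, 2 and 4 of 8 cases and astrocyte markers in 1 of 5 each time, and none rose. Of 4 cortical excitatory neuron markers 1 rose each time, and 2, 0 and 0 fell. Markers of choroid plexus summed to 308 CPM in Ccdc82-/- male 1 and to 48.8 CPM in WT male 1, with a median of 9.55 CPM over all libraries.

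Among the members, levels per length ran over several orders of magnitude. The most abundant on the deposited FPKM scale, which divides by gene length, was Hsp90ab1, the constitutive cytosolic Hsp90, with a mean of 440 FPKM and a range of 386 to 529 FPKM over the 47 libraries. Hspa8, the constitutive Hsp70 of the cytosol, followed with a mean of 114 FPKM (81.7 to 160). Hsp90b1, the Hsp90 of the ER, had 80.1 FPKM (67.5 to 107), Hsp90aa1, the inducible cytosolic Hsp90, 65.1 FPKM (54.5 to 82.5), and the chaperonin subunit Cct2 59.3 FPKM (51.3 to 66.9). The ranges of neighbours in this order from Hspa8 downward overlapped, whereas that of Hsp90ab1 lay above all others. The classical stress-induced Hsp70 genes were low, with means of 1.25 FPKM for Hspa1b and 1.12 FPKM for Hspa1a. The 2 are nearly identical copies, and how reads that map to both were counted is not given. These levels may thus be too low. A mean of at least 10 FPKM was reached by 46 members, and 10 members had a mean under 1 FPKM. A filter on low counts left 75 members for testing among 19193 genes, and set aside Hspb3, Hspb7, Hspb9, Dnajb7, Dnajb8 and Dnajc22.

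The comparison of Q140 with WT mice asked how the chaperone system stood in the striatum of the disease model. Among the 75 tested members, 21 rose and 6 fell in Q140 mice (edgeR quasi-likelihood test with Benjamini-Hochberg adjustment over all genes, adjusted p under 0.05). Over all tested genes, 18.2% rose and 16.5% fell, against 28.0% and 8.00% of the members. The same test gave 17 members higher and 7 lower in Q140 Ccdc82+/- against Ccdc82+/- mice, where 18.4% and 16.7% of all genes were called. In Q140 Ccdc82-/- against Ccdc82-/- mice, 16 members were higher and 6 lower, with 17.5% and 15.7% of all genes. These 3 comparisons share no mice, only the estimates of spread and sex. In all 3 of them 12 members rose, which is 16% of those tested against 11.8% of all genes, and 4 fell, which is 5.33% against 11.3%. No member was called in opposite directions. The changes were small: the median log2 fold change of the members was 0.04 in Q140 against WT, and the values of single members ran from -0.28 to 0.30.

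With limma on the deposited FPKM, 32 members rose and 5 fell in Q140 against WT. The counts were 35 and 4 for the Ccdc82+/- background, and 34 and 3 for Ccdc82-/-. In that fit the median of all genes lay at 0.05, 0.08 and 0.07 on the scale of log2(FPKM + 0.1), while 27.7, 30.5 and 28.8% of all genes rose and 9.95, 8.98 and 8.53% fell. When the number in the library name, whose meaning the labels do not give, replaced sex in the model, 25 members rose and 5 fell in Q140, 15 rose and 11 fell on the Ccdc82+/- background, and 4 rose and 10 fell on the Ccdc82-/- background. Of all genes, 15, 15.1 and 13.6% rose and 14.4, 14.8 and 13.3% fell in that fit. The 4 that rose on the Ccdc82-/- background were Hspa13, Dnajc6, Hspa2 and Cct6a, so the rises of the other 12 members there were lost. The 10 that fell included Hsp90b1, at -0.34 with an edgeR adjusted p of 0.000586, Hsf1 (-0.20) and Hspa4 (-0.23), of which Hsp90b1 and Hsf1 did not pass there with sex in the model.

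**Figure D1:**
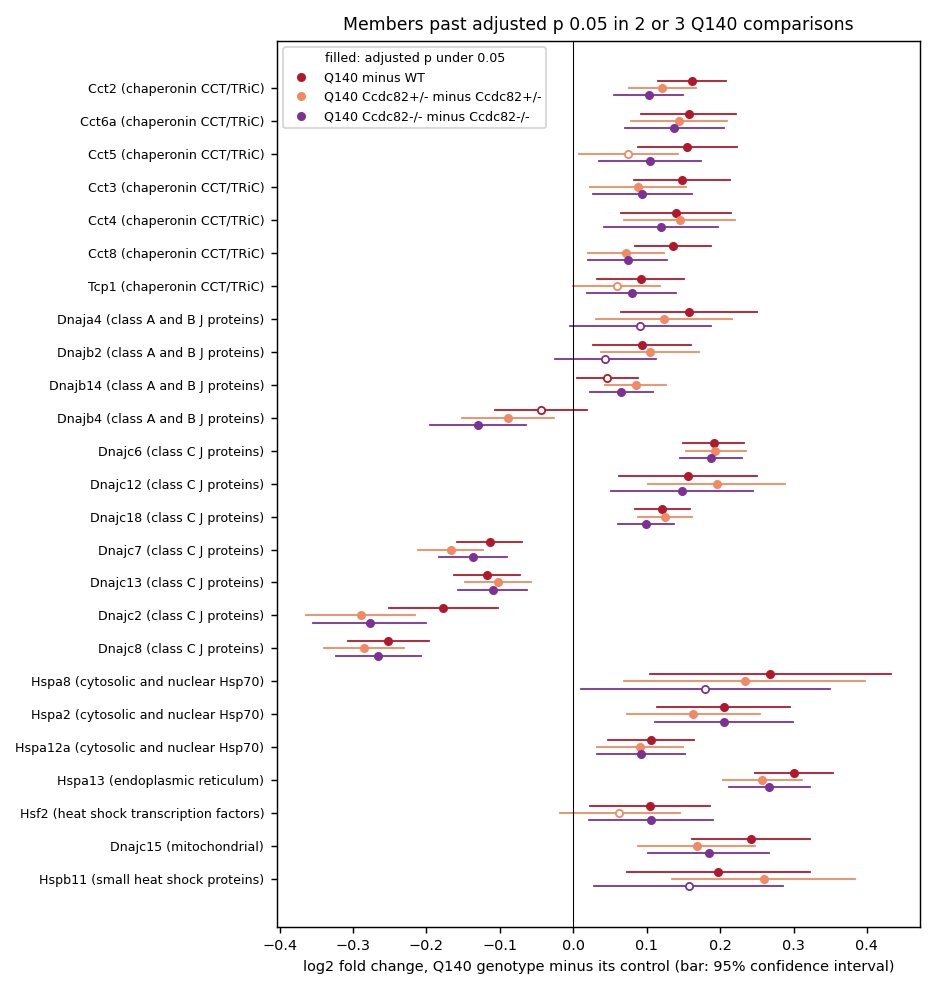
Log2 fold change with its 95% confidence interval for the members past the threshold in 2 or 3 of the Q140 comparisons, grouped by role; each member has 3 points, from top to bottom for Q140 minus WT, Q140 Ccdc82+/- minus Ccdc82+/- and Q140 Ccdc82-/- minus Ccdc82-/-, and filled points passed adjusted p 0.05. The 7 chaperonin subunits shown and Hspa13 lie to the right of 0, and Dnajc8, Dnajc2, Dnajc7 and Dnajc13 to the left in all 3.

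The 8 genes of the cytosolic chaperonin CCT moved almost as a block. Of its subunits, 7 rose in Q140 against WT mice, which is 87.5% beside 18.2% of all genes, and the median log2 fold change over the 8 was 0.14. Cct2 had lowest, median and highest levels of 119, 122 and 128 CPM in Q140 mice, against 104, 110 and 113 CPM in WT mice, so that the 2 groups did not overlap. Its log2 fold change was 0.16 ± 0.023 (SE), an adjusted p of 9.63e-08. For Cct6a the levels were 114, 122 and 128 CPM in Q140 and 104, 108 and 121 CPM in WT mice, with a log2 fold change of 0.16 ± 0.033 (SE) and an adjusted p of 0.000111. The groups overlapped through WT female 1, at 121 CPM.

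Cct5 stood at 107, 114 and 120 CPM in Q140 and at 93.8, 104 and 111 CPM in WT mice (log2 fold change 0.16), and Cct3 at 97.7, 106 and 110 CPM in Q140 and at 91.2, 93.1 and 105 CPM in WT mice (0.15). For Cct4 the 3 levels were 74.9, 80 and 87.6 CPM in Q140 and 66.1, 73.3 and 80.6 CPM in WT mice (0.14), and for Cct8 126, 134 and 138 CPM in Q140 and 116, 121 and 128 CPM in WT mice (0.14). Tcp1, which encodes the alpha subunit, showed the smallest rise, with 162, 174 and 176 CPM in Q140 and 148, 163 and 175 CPM in WT mice (0.09). Cct7 was the exception, at 118, 122 and 126 CPM in Q140 and 118, 125 and 134 CPM in WT mice, a log2 fold change of -0.03 ± 0.026 (SE) with an adjusted p of 0.4.

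On the Ccdc82+/- background 5 subunits rose and Cct7 fell, by 0.08 on the log2 scale with an adjusted p of 0.0175, a call lost without Ccdc82+/- male 4. The rises of Cct3 and Cct8 there were lost without any of several single mice. Cct5 (0.07, adjusted p of 0.0783) and Tcp1 (0.06, adjusted p of 0.118) did not pass. Cct5 did pass there with the library name number in place of sex (0.09, edgeR adjusted p of 0.0414). In Q140 Ccdc82-/- mice the same 7 subunits rose as in Q140 mice, by 0.07 for Cct8 to 0.14 for Cct6a, and Cct7 did not pass at -0.05. Without Q140 Ccdc82-/- female 1, the highest library of that group in each of the 8 panels of the chaperonin plot, only the rises of Cct2 and Cct6a still passed there. With the library name number in place of sex only that of Cct6a did, and Cct7 fell (-0.08, edgeR adjusted p of 0.0435). With females alone, Cct2 and Cct8 remained called in Q140 against WT and the other 5 did not pass, at 4 mice a group.

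**Figure D2:**
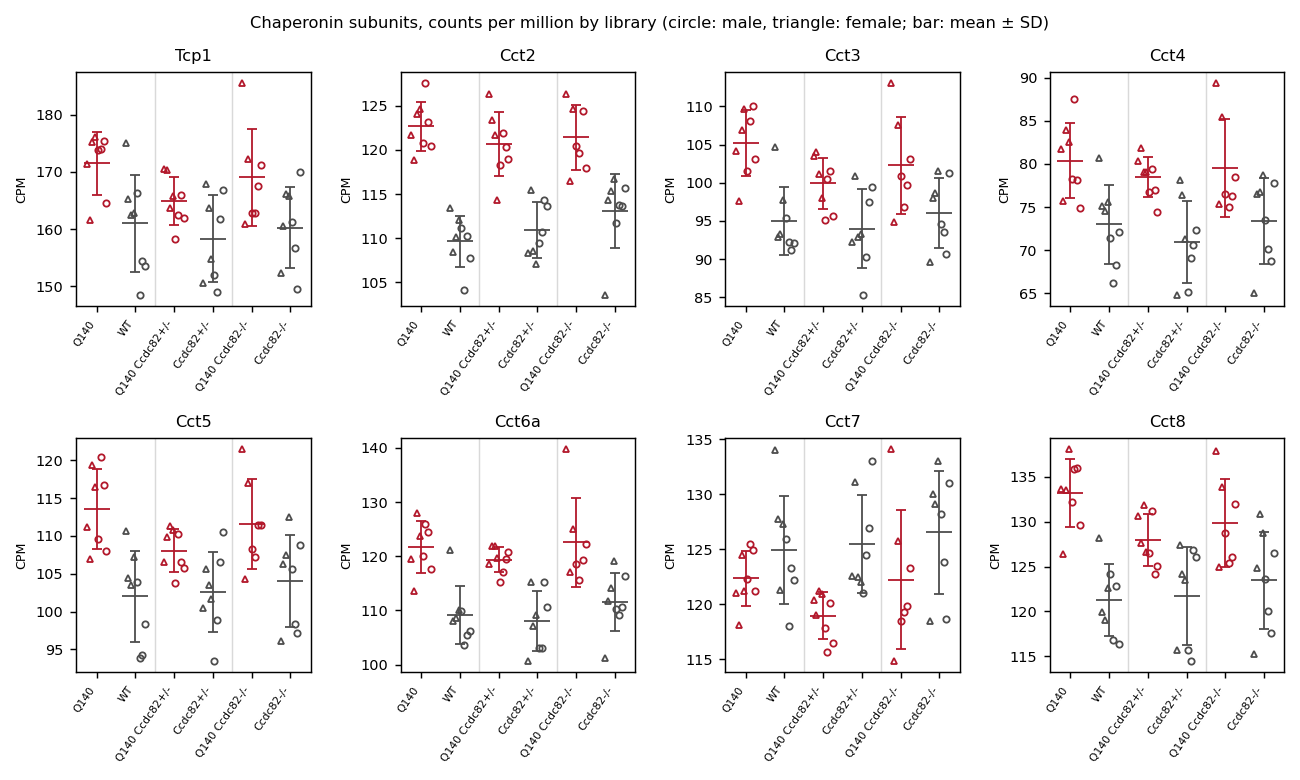
CPM of the 8 chaperonin subunits in each of the 47 libraries by genotype, each Q140 group to the left of its control, with males as circles, females as triangles and bars for the mean ± SD; the axes do not start at 0. In 7 panels the Q140 group lies higher on average than its control on each background, and in the Cct7 panel it lies lower.

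Of the cytosolic and nuclear Hsp70 genes, 3 of 9 (33.3%) rose in Q140 mice, beside 18.2% of all genes, and none fell. Hspa8, which also strips clathrin from vesicles, had 471, 526 and 625 CPM as lowest, median and highest levels in Q140 mice, against 345, 451 and 571 CPM in WT mice. Its log2 fold change was 0.27 ± 0.082 (SE) with an adjusted p of 0.00826, and the groups overlapped. It was 0.23 ± 0.081 (SE) on the Ccdc82+/- background, with an adjusted p of 0.0215, and 0.18 ± 0.084 (SE) on the Ccdc82-/- background, with an adjusted p of 0.0988. Without Ccdc82+/- female 1 the edgeR adjusted p on the Ccdc82+/- background was 0.058. Hspa2, an Hsp70 best known from the testis, stood at 30.4, 33.1 and 35.8 CPM in Q140 and at 26.1, 29 and 31.3 CPM in WT mice. It rose by 0.20, 0.16 and 0.20 on the log2 scale in the 3 comparisons. Hspa12a, a distant member of the family, had 144, 156 and 160 CPM in Q140 mice, against 132, 142 and 152 CPM in WT mice, with log2 fold changes of 0.11, 0.09 and 0.09, all past the threshold, though the last was lost without Q140 Ccdc82-/- female 2.

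Among the other large chaperones no rise was called with sex in the model. The 3 Hsp110 genes, which reload Hsp70 with ATP, had log2 fold changes of -0.08 for Hspa4, 0.05 for Hspa4l and 0.04 for Hsph1 in Q140 against WT, none past the threshold. Hspa4 fell on the Ccdc82-/- background, with 203, 210 and 257 CPM in Q140 Ccdc82-/- and 217, 236 and 263 CPM in Ccdc82-/- mice (log2 fold change -0.13 ± 0.046 (SE), adjusted p of 0.026), a call lost without any of 6 single mice (Ccdc82-/- female 4 or male 4, Q140 Ccdc82-/- female 2 or males 1, 2 or 3). Both cytosolic Hsp90 genes missed the threshold in each Q140 comparison with sex in the model. Hsp90ab1 had 1290, 1360 and 1460 CPM in Q140 and 1240, 1290 and 1470 CPM in WT mice, with a log2 fold change of 0.06 ± 0.036 (SE). Hsp90aa1 had 247, 270 and 292 CPM in Q140 and 231, 245 and 283 CPM in WT mice, with a log2 fold change of 0.09 ± 0.046 (SE) and an adjusted p of 0.128. With the library name number in place of sex, Hsp90aa1 (0.17, edgeR adjusted p of 0.017) and Hsp90ab1 (0.11, adjusted p of 0.0148) rose in Q140 against WT. Hspa4l (0.16, adjusted p of 0.00319) did so as well. In that fit Hspa4 also fell on the Ccdc82+/- background (-0.13, adjusted p of 0.00286).

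The largest rise among the members in Q140 against WT and in Q140 Ccdc82-/- against Ccdc82-/- mice was that of Hspa13, an Hsp70 of microsomes that consists of the ATPase domain (ENSMUSG00000032932, minus strand of chromosome 16, 75745431 to 75767104 in GRCm38). Its lowest, median and highest levels were 59.8, 64.7 and 67.1 CPM in Q140 mice and 50.8, 51.9 and 54.7 CPM in WT mice. They were 59.8, 62.3 and 66.8 CPM in Q140 Ccdc82+/- and 48.2, 52.8 and 55.2 CPM in Ccdc82+/- mice, and 59.1, 62.8 and 64.1 CPM in Q140 Ccdc82-/- and 48.1, 52.2 and 53.3 CPM in Ccdc82-/- mice. All 23 mice with the Q140 allele thus stood above all 24 without it. The log2 fold changes were 0.30 ± 0.026, 0.26 ± 0.026 and 0.27 ± 0.027 (SE), with adjusted p-values of 2.92e-13, 2.58e-11 and 2.9e-11 in that order. Groups without overlap, with the Q140 side above, were seen in 4, 4 and 3 members, beside 4.7, 4.52 and 4.12% of all genes.

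With sex in the model, the other genes of a list of 8 ER members stayed under the threshold or changed little. The list leaves out Dnajc18 and Dnajb14 of the ER membrane, counted with the J protein classes, which rose in 3 and 2 Q140 comparisons. Of the 8 genes listed, Hspa13 and Dnajb9, a J protein of the ER lumen, rose in Q140 against WT, which is 25% beside 18.2% of all genes. The log2 fold change of Dnajb9 was 0.08. Hspa5, the main Hsp70 of the ER, had 199, 248 and 416 CPM in Q140 and 165, 248 and 358 CPM in WT mice. Its log2 fold changes were 0.08 ± 0.175, 0.09 ± 0.175 and 0.10 ± 0.181 (SE), with adjusted p-values of 0.754, 0.738 and 0.74, and its groups overlapped almost entirely. Hsp90b1 stood at 289, 313 and 388 CPM in Q140 and at 284, 344 and 436 CPM in WT mice, a log2 fold change of -0.12 ± 0.082 (SE) with an adjusted p of 0.261. With the library name number in place of sex, Hspa5 rose in Q140 against WT (0.42, edgeR adjusted p of 0.0241). Dnajb11 (0.20, adjusted p of 0.0118) and Dnajc3 (0.21, adjusted p of 0.0325) did so as well. None of these passed on the Ccdc82+/- and Ccdc82-/- backgrounds in that fit. Hsp90b1 fell on both (-0.20 and -0.34), and Dnajc1 on the Ccdc82-/- background (-0.16).

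**Figure D3:**
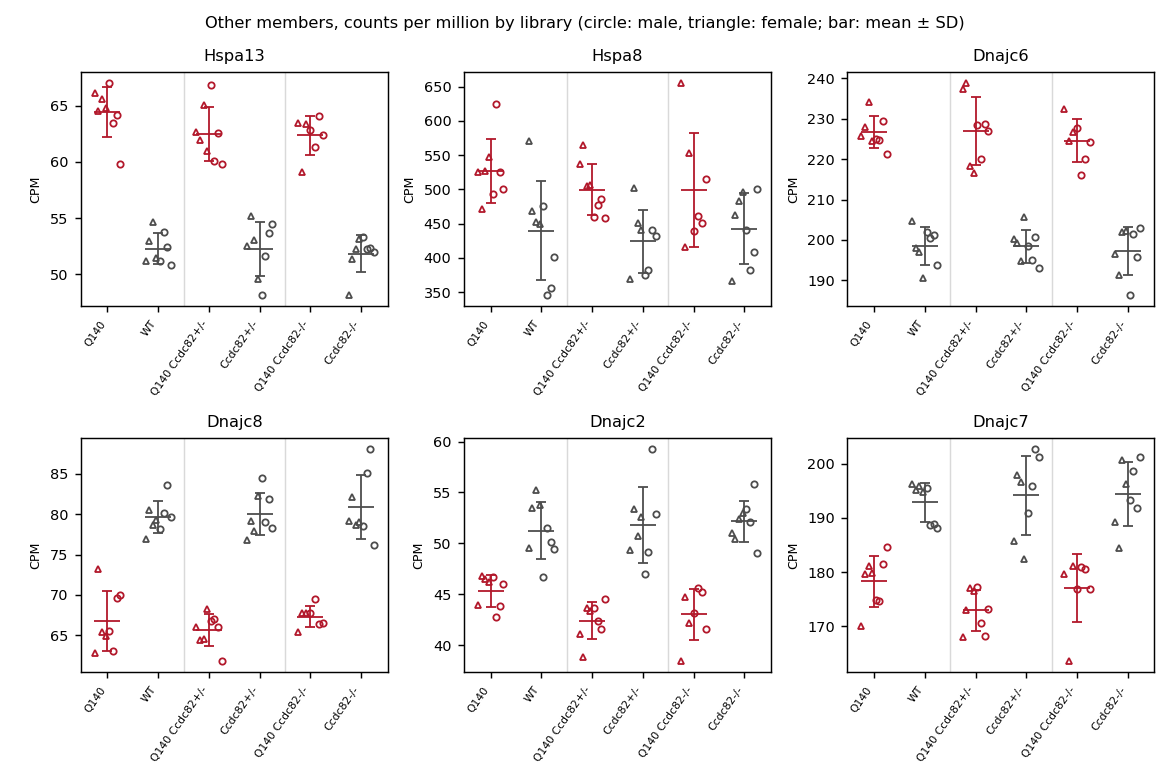
CPM of Hspa13, Hspa8, Dnajc6, Dnajc8, Dnajc2 and Dnajc7 in each of the 47 libraries by genotype, each Q140 group to the left of its control, with males as circles, females as triangles and bars for the mean ± SD; the axes do not start at 0. The Q140 groups of Hspa13 and Dnajc6 lie wholly above, and those of Dnajc7 and Dnajc8 wholly below, their controls on each background, while the groups of Hspa8 overlap.

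J proteins of class C carry a J domain that can lie anywhere in the protein, and they often serve a single process. The class is counted here without Dnajc1, Dnajc3 and Dnajc10, placed with the ER members, and Dnajc15 and Dnajc19, placed with the mitochondrial ones. Of those left out, Dnajc15 rose in all 3 Q140 comparisons. Among the 20 tested genes that remain, 3 (15%) rose and 4 (20%) fell in each Q140 comparison. These shares lay near the 17.5 to 18.4% of all genes that rose and the 15.7 to 16.7% that fell. The same 7 genes were called each time, although 2 of the rises, those of Dnajc12 and Dnajc18, were lost on the Ccdc82-/- background with the library name number in place of sex. Dnajc6, or auxilin, which recruits Hspa8 to uncoat clathrin vesicles in neurons, had 221, 225 and 234 CPM in Q140 and 191, 199 and 205 CPM in WT mice. The levels were 217, 228 and 239 CPM in Q140 Ccdc82+/- and 193, 199 and 206 CPM in Ccdc82+/- mice, and 216, 225 and 232 CPM in Q140 Ccdc82-/- and 186, 199 and 203 CPM in Ccdc82-/- mice. The groups did not overlap in any of the 3 comparisons, and each log2 fold change was 0.19, with adjusted p-values of 9.25e-11, 5.43e-11 and 4.15e-10. Dnajc18, a J protein of the ER membrane, stood at 103, 107 and 109 CPM in Q140 and at 95, 97.3 and 102 CPM in WT mice, and rose by 0.12, 0.13 and 0.10 without overlap in all 3. Dnajc12, which binds the aromatic amino acid hydroxylases, was lower in level, at 9.28, 10.7 and 11.3 CPM in Q140 and 8.39, 9.5 and 10.3 CPM in WT mice, and rose by 0.16, 0.20 and 0.15 with overlapping groups.

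The 4 class C genes that fell work at ribosomes, the spliceosome, endosomes and between Hsp70 and Hsp90. Dnajc8, a splicing-associated J protein (ENSMUSG00000054405, plus strand of chromosome 4, 132535550 to 132553742), had 62.8, 65.5 and 73.2 CPM in Q140 and 77, 79.4 and 83.6 CPM in WT mice. It stood at 61.8, 66.1 and 68.2 CPM in Q140 Ccdc82+/- and 76.8, 79.1 and 84.5 CPM in Ccdc82+/- mice, and at 65.5, 67.7 and 69.4 CPM in Q140 Ccdc82-/- and 76.2, 79.1 and 88.1 CPM in Ccdc82-/- mice. It fell by 0.25, 0.29 and 0.27 on the log2 scale, with adjusted p-values of 1.46e-10, 3.47e-12 and 1.02e-10 and no overlap in any comparison. Groups without overlap, with the Q140 side below, made up 5.07, 5.76 and 5.36% of all genes, and 3 members in each comparison.

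Dnajc2, the J protein of the ribosome-associated complex that works with Hspa14, stood at 42.7, 46.1 and 46.8 CPM in Q140 and at 46.7, 50.8 and 55.3 CPM in WT mice, groups that touched at their edges. On the Ccdc82+/- background the levels were 38.9, 42.8 and 44.5 CPM with Q140 and 47, 51.7 and 59.3 CPM without it, and on the Ccdc82-/- background 38.4, 43.2 and 45.7 CPM with Q140 and 49, 52.3 and 55.8 CPM without it. It fell by 0.18, 0.29 and 0.28, and the differences between these effects did not pass the test (edgeR interaction adjusted p of 0.914 for Ccdc82+/- and 0.998 for Ccdc82-/-). Dnajc7, which links Hsp70 and Hsp90 through tetratricopeptide repeats, had 170, 180 and 185 CPM in Q140 and 188, 195 and 196 CPM in WT mice, and fell by 0.11, 0.17 and 0.14 without overlap. Dnajc13, an endosomal J protein also known as RME-8, had 89.3, 94.4 and 97.7 CPM in Q140 and 98.2, 102 and 106 CPM in WT mice, and fell by 0.12, 0.10 and 0.11.

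Class A and B J proteins carry the J domain at the amino terminus and include the general partners of Hsp70. Of 12 tested genes outside the ER and mitochondrial lists, 2 rose in Q140 against WT, which is 16.7% beside 18.2% of all genes. Dnajb9 and Dnaja3, counted in those lists, rose in that comparison as well, and Dnajb11 did not pass. Dnaja4 had 66.1, 71.5 and 81.1 CPM in Q140 and 58.2, 64.1 and 73.3 CPM in WT mice (log2 fold change 0.16, adjusted p of 0.00566), and 44.1% of its exons lie opposite to Wdr61. Dnajb2, a neuronal J protein that binds ubiquitin, had 75.1, 83.7 and 90 CPM in Q140 and 74.1, 77.9 and 82.1 CPM in WT mice (0.09, adjusted p of 0.023), a call lost without any of Q140 female 4, Q140 male 2 or WT male 3. Both rose again on the Ccdc82+/- background, by 0.12 for Dnaja4, a call lost without any of 5 single mice, and by 0.10 for Dnajb2, and neither passed on the Ccdc82-/- background. Dnajb14, of the ER membrane, had 139, 142 and 146 CPM in Q140 Ccdc82+/- and 126, 135 and 140 CPM in Ccdc82+/- mice, and 131, 139 and 142 CPM in Q140 Ccdc82-/- and 127, 132 and 140 CPM in Ccdc82-/- mice. It rose by 0.09 and 0.07 there. Dnajb4 had 99.7, 106 and 110 CPM in Q140 Ccdc82+/- and 103, 112 and 121 CPM in Ccdc82+/- mice, and 98.5, 105 and 109 CPM in Q140 Ccdc82-/- and 108, 113 and 121 CPM in Ccdc82-/- mice. It fell by 0.09, a call lost without any of 3 single mice, and by 0.13. Dnajb3 fell by 0.46 on the Ccdc82+/- background, at means of 0.881 CPM in Q140 Ccdc82+/- and 1.21 CPM in Ccdc82+/- mice. Its log2 fold changes of -0.21 against WT and -0.16 on the Ccdc82-/- background did not pass, and neither did the interactions. The main stress-induced J protein Dnajb1 had 50.5, 58.1 and 65 CPM in Q140 and 44.5, 56.4 and 65 CPM in WT mice, with a log2 fold change of 0.08 ± 0.087 (SE).

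Of the 6 members placed in the mitochondrial list, 2 (33.3%) rose in Q140 against WT, beside 18.2% of all genes. Dnajc15, a J protein of the inner membrane, had 14.9, 16.2 and 17 CPM in Q140 and 12.5, 13.8 and 15.2 CPM in WT mice, and rose by 0.24, 0.17 and 0.18 with adjusted p-values of 2.57e-06, 0.00058 and 0.000325. Dnaja3, a J protein of the matrix, rose in Q140 against WT, by 0.09. Dnajc19, another J protein of the inner membrane, had log2 fold changes of -0.07, 0.01 and -0.08, none past the threshold. Hspa9, the Hsp70 of the matrix, kept to 205 to 218 CPM in Q140 and 207 to 219 CPM in WT mice, and the 95% confidence interval of its log2 fold change was -0.03 to 0.05. The matrix chaperonin Hspd1 had 96.8, 102 and 109 CPM in Q140 and 91.5, 99.1 and 106 CPM in WT mice, and its partner Hspe1 26.3, 30 and 32.7 CPM in Q140 and 26.3, 30.2 and 33.1 CPM in WT mice. They had log2 fold changes of 0.04 ± 0.033 and -0.02 ± 0.047 (SE), neither past the threshold.

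Small heat shock proteins hold unfolded proteins without ATP. Among the members named Hspb the highest mean was 4.7 FPKM, for Hspb8. Cryab, a small heat shock protein that does not carry the name, had 45.8, 52.7 and 72.1 CPM in Q140 and 43, 54.1 and 70.6 CPM in WT mice, groups that overlapped almost entirely. Hspb8, which acts with Bag3 in the removal of misfolded proteins, fell in Q140 mice to 6.83, 8.48 and 10.1 CPM, against 8.54, 10.1 and 11.3 CPM in WT mice (log2 fold change -0.25 ± 0.059 (SE), adjusted p of 0.000588). Its log2 fold changes of -0.10 and -0.11 on the Ccdc82+/- and Ccdc82-/- backgrounds did not pass. Hspb11, a subunit of the intraflagellar transport machinery also named IFT25, had 5.77, 5.96 and 6.9 CPM in Q140 and 4.52, 5.2 and 6.28 CPM in WT mice, and rose by 0.20 there and by 0.26 on the Ccdc82+/- background.

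The transcription factors moved little with sex in the model. Hsf1 had 33.9, 35.6 and 38.4 CPM in Q140 and 34.3, 40.5 and 46 CPM in WT mice and fell by 0.13 (adjusted p of 0.0246), while Hsf2 had 21.8, 22.5 and 23.5 CPM in Q140 and 18.7, 21.3 and 22.5 CPM in WT mice and rose by 0.10 (adjusted p of 0.0396). Hsf2 also rose on the Ccdc82-/- background, by 0.11 with an adjusted p of 0.0466, a call kept in 3 of 13 alternatives. The calls against WT depended on single mice. Hsf1 missed the threshold without any of 5 of the mice and Hsf2 without any of 8, with adjusted p-values of up to 0.0823 and 0.125. In the fit with the library name number these calls did not pass. Hsf1 instead fell there on the Ccdc82+/- background (-0.14, edgeR adjusted p of 0.000499) and on the Ccdc82-/- background (-0.20, adjusted p of 4.2e-05).

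The heat-inducible genes, a subset of 11 members known to rise under heat (Hspa1a, Hspa1b, Hspa8, Hspa4l, Hsph1, Hsp90aa1, Hspd1, Hspe1, Dnaja1, Dnajb1 and Hspb1), did not rise together. In Q140 against WT 1 of the 11 passed, Hspa8, which is 9.09% beside 18.2% of all genes, and the median log2 fold change was 0.04. On the Ccdc82+/- background it was again Hspa8 alone, with a median of 0.03, and on the Ccdc82-/- background none passed, with a median of -0.04. At an unadjusted p under 0.05 the counts were 1, 3 and 1. With the library name number in place of sex, Hspa4l and Hsp90aa1 also passed in Q140 against WT, where 15% of all genes rose. On the Ccdc82+/- background Hspa8 alone passed in that fit, and on the Ccdc82-/- background none did. Hspa1b had 1.92, 3.43 and 9.93 CPM in Q140 and 0.629, 4.57 and 9.98 CPM in WT mice, and Hspa1a had 1.76, 3.71 and 6.62 CPM in Q140 and 0.974, 3.23 and 7.56 CPM in WT mice. These 2 genes varied so much between mice of the same group that their log2 fold changes carried errors of 0.451 and 0.329 (SE). Hspb1 had 1.42, 1.98 and 3.72 CPM in Q140 and 1.06, 2.33 and 2.75 CPM in WT mice, and Dnaja1 had 112, 120 and 132 CPM in Q140 and 102, 122 and 140 CPM in WT mice. Hsph1 had 322, 351 and 412 CPM in Q140 and 261, 356 and 437 CPM in WT mice, and Hspa4l had 196, 222 and 259 CPM in Q140 and 193, 210 and 242 CPM in WT mice. The Q140 and WT ranges of all 11 genes overlapped.

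Partner genes of the chaperones outside the named families were counted from 4 lists that hold 41 genes. In Q140 against WT 13 rose and 4 fell, on the Ccdc82+/- background 11 rose and 5 fell, and on the Ccdc82-/- background 10 rose and 5 fell. The shares of all genes were the 18.2, 18.4 and 17.5% that rose and the 16.5, 16.7 and 15.7% that fell. Of 14 Hsp90 partners 7, 7 and 6 rose and none fell, with median log2 fold changes of 0.11, 0.08 and 0.08. They included Ahsa2, a relative of the Hsp90 activator Aha1, at 24.6, 27.6 and 33.6 CPM in Q140 and 15.5, 20.9 and 23.5 CPM in WT mice, which rose by 0.48, 0.54 and 0.29. Fkbp4, a prolyl isomerase of steroid receptor complexes, had 84.8, 94.3 and 111 CPM in Q140 and 68.5, 79.6 and 92.2 CPM in WT mice, and rose by 0.28, 0.24 and 0.22. The mitochondrial Hsp90 Trap1 (0.14, 0.08 and 0.08), Tomm34 (0.10, 0.07 and 0.07) and the myosin chaperone Unc45a (0.10, 0.13 and 0.14) rose in all 3 comparisons, and Ppid, another prolyl isomerase, in 2.

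Of 14 Hsp70 partners 2 rose in each Q140 comparison, Bag1 and Bag2, and 3 to 4 fell. Bag2, a nucleotide exchange factor that inhibits Stub1, rose by 0.37, 0.55 and 0.33, with 2.54, 3.16 and 4.35 CPM in Q140 and 1.93, 2.44 and 3.47 CPM in WT mice. Stub1 itself, the ubiquitin ligase CHIP that marks Hsp70 and Hsp90 clients, had 79.6, 82.1 and 85.5 CPM in Q140 and 88.5, 89.5 and 94.6 CPM in WT mice. It fell by 0.13, 0.20 and 0.14 with no overlap in any comparison. The exchange factors Bag4 (-0.11, -0.15 and -0.13) and Bag5 (-0.12, -0.16 and -0.12) fell in all 3 comparisons, and St13, known as Hip, in the 2 on Ccdc82 backgrounds. Among 8 prefoldin and chaperonin partners, which hand actin and tubulin to CCT or regulate it, the prefoldin subunit Vbp1 had 43.8, 48.6 and 50.3 CPM in Q140 and 37, 39.7 and 40.8 CPM in WT mice and rose by 0.28, 0.23 and 0.22 without overlap. The CCT-binding protein Pdcl rose by 0.16, 0.21 and 0.13, and the prefoldin subunit Pfdn2 fell by 0.15, 0.20 and 0.16.

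Loss of Ccdc82 was compared with and without Q140 to ask whether it altered these genes or their difference in Q140 mice. No member passed in Ccdc82+/- or Ccdc82-/- against WT, in Q140 Ccdc82+/- or Q140 Ccdc82-/- against Q140, or in either interaction. The smallest adjusted p was 0.858 over these 6 comparisons, and 2, 0, 6, 1, 2 and 0 members had an unadjusted p under 0.05. DESeq2 and limma also called none. Over all genes 0.00521% were called in each of the 4 comparisons, which was Ccdc82 alone, and 0% in each interaction. The estimates were narrow for the steadier members: in Ccdc82-/- against WT mice the 95% confidence interval of the log2 fold change was -0.07 to 0.04 for Hspa13 and -0.05 to 0.03 for Dnajc6. For the difference between the Q140 effects with and without Ccdc82-/- it was -0.11 to 0.04 for Hspa13 and -0.06 to 0.06 for Dnajc6. For Hspa8 that interval was -0.33 to 0.15, which includes a difference as large as its Q140 effect. With the library name number in place of sex, 1 member passed in this interaction, Hspa4 at -0.26 with an adjusted p of 0.0241.

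Between the sexes, 8 members were lower in males and none was higher, over 24 males and 23 females of all genotypes, while 4.64% of all genes were lower in males and 4.03% higher. The 8 were Hsf1, Dnajc1, Hspa4, Hspb8, Hspa12b, Cct4, Hsp90b1 and Hsph1. Hsf1 had 30.4, 35.9 and 42.3 CPM in males and 33.9, 38.6 and 46 CPM in females, a log2 fold change of -0.11 ± 0.027 (SE) with an adjusted p of 0.00664. Dnajc1, a J protein of the ER membrane, had 28.6, 30.6 and 37.2 CPM in males and 29.1, 34 and 39.8 CPM in females (-0.13, adjusted p of 0.0112). Hspa12b, an Hsp70 relative of endothelial cells, had 5.4, 6.95 and 10.3 CPM in males and 5.92, 8.38 and 10.8 CPM in females (-0.24, adjusted p of 0.0245). Of 7 markers of endothelial and mural cells 1 was lower in males and none higher, and its part in this result was not tested. The call of Hspa12b was lost with no filter on low counts. Hspa4 had 197, 216 and 255 CPM in males and 204, 228 and 274 CPM in females (-0.09). Hspb8 had 6.83, 8.59 and 10.4 CPM in males and 7.07, 9.74 and 11.3 CPM in females (-0.13).

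Cct4 had 65.1, 74.7 and 87.6 CPM in males and 64.8, 78.1 and 89.4 CPM in females (-0.07, adjusted p of 0.0296). Hsp90b1 had 264, 294 and 405 CPM in males and 265, 342 and 436 CPM in females (-0.16 ± 0.048 (SE), adjusted p of 0.0339), and Hsph1 261, 321 and 412 CPM in males and 277, 362 and 450 CPM in females (-0.16 ± 0.050 (SE), adjusted p of 0.0348). Male and female ranges overlapped for all 8. The calls of Cct4, Hsp90b1 and Hsph1 were lost without Q140 Ccdc82-/- female 1, which left 5 members, while 16 were called lower without Q140 male 2. Each library name number held mice of a single sex, so the sex comparison could not be repeated with it. Its p-values do not account for likeness between mice that share a number. With genotype and this number taken out, the spread on the log2 scale was 0.1 for Hsp90b1 and 0.141 for Hsph1. With genotype and sex it was 0.163 and 0.173.

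Within a genotype and sex the mice differed from each other far more in some members than in others. The spread left after genotype and sex was taken out was 0.816 on the log2 scale for Hspa1b and 0.576 for Hspa1a, and 0.342 for Hspa5, which placed Hspa5 at the 98.6 percentile of all tested genes. For Hspa13 it was 0.0507, at the 10.1 percentile, and for Dnajc18 0.0314, at the 0.4 percentile. Hspa5 ran from 162 CPM to 434 CPM over the 47 mice. Its highest deviations were 0.83 in Q140 male 2, 0.76 in Ccdc82-/- male 4, 0.64 in Q140 Ccdc82-/- female 1 and 0.57 in WT male 1, and its lowest were -0.67 in Q140 Ccdc82-/- female 2 and -0.51 in Q140 female 2. The next lowest were -0.43 in Ccdc82-/- female 1 and -0.42 in WT male 2, so both ends held mice with and without Q140.

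Several ER members followed Hspa5 from mouse to mouse. Pearson's r of the deviations of Hsp90b1 with those of Hspa5 was 0.97 and Spearman's rho 0.95 over 47 libraries, each with a permutation p of 1.0e-05, the smallest that 100000 permutations give (adjusted p of 1.7e-05 and 2.0e-05 over 171 pairs of 19 members). Without the 2 libraries farthest from the median r was 0.96. For Dnajb11, a J protein of the ER lumen, r was 0.94 and rho 0.88, and for Dnajc3, an ER J protein also known as an inhibitor of the kinase PKR, r was 0.91 and rho 0.87, with the same p-values. Dnajc10, an ER J protein with disulfide reductase domains, ran the other way, with r of -0.83 and rho of -0.81 and again the smallest p-values. Without the 2 farthest libraries r was 0.92 for Dnajb11, 0.87 for Dnajc3 and -0.8 for Dnajc10. Hspa13 did not follow, with r of 0.14 (permutation p of 0.356) and rho of 0.11 (permutation p of 0.443), and r of 0.03 without the 2 farthest libraries.

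Among the heat-inducible members, Hspa8 went with Hspa5 at r of 0.88 and rho of 0.82, and with Hsph1 at r of 0.93 and rho of 0.89. The pairs Hspa1a and Hspa1b (r of 0.92, rho of 0.85) and Dnajb1 and Hspa1b (r of 0.87, rho of 0.83) were also close, whereas Hspa1b and Hspa5 were less so, at r of 0.55 and rho of 0.54 with permutation p-values of 8.0e-05 (adjusted p of 1.2e-04 and 1.3e-04). For the 4 closer pairs the permutation p-values were 1.0e-05. Without the 2 farthest libraries r was 0.86 for Hspa8 with Hspa5, 0.92 for Hspa8 with Hsph1, 0.9 for Hspa1a with Hspa1b, 0.84 for Dnajb1 with Hspa1b and 0.56 for Hspa1b with Hspa5. Over all 171 pairs r ran from -0.84 to 0.97 with a median of 0.65, and 149 had an adjusted p under 0.05. Among the chaperonin subunits r with Hspa5 was between 0.56 for Cct2 and 0.79 for Cct5.

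**Figure D4:**
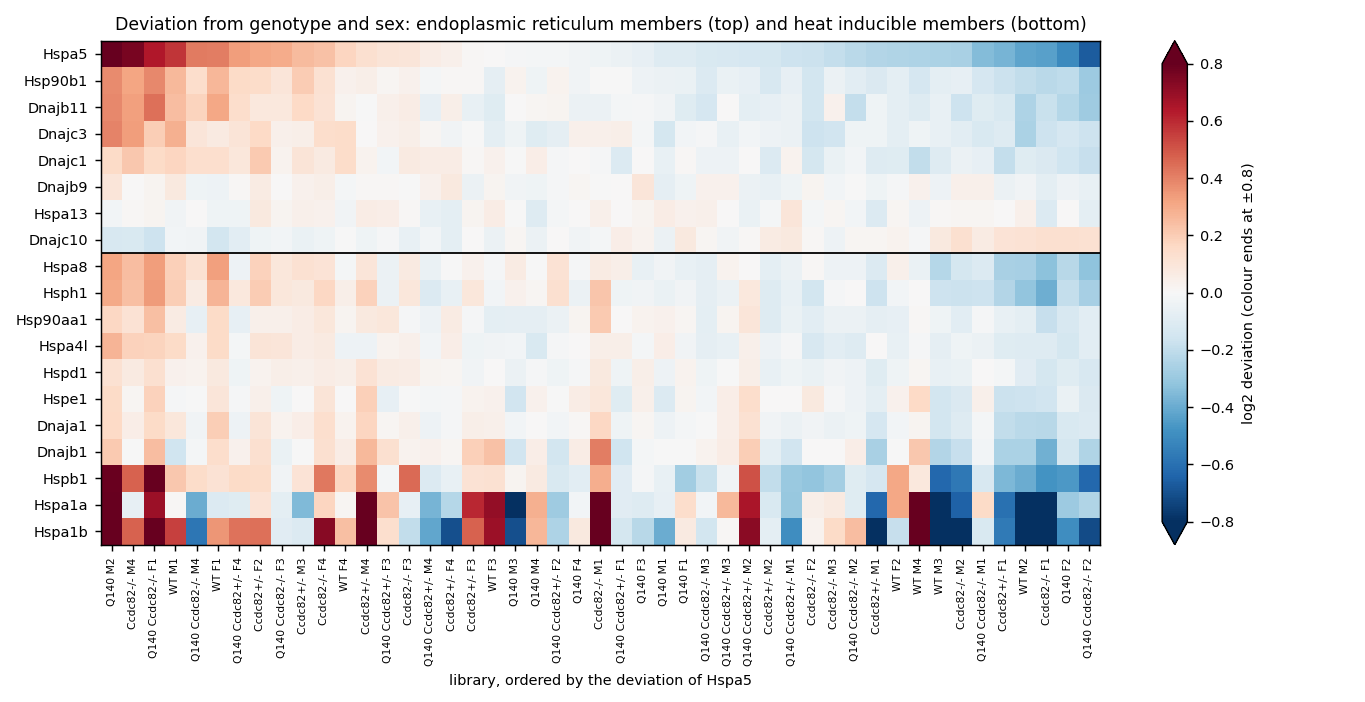
Deviation of 19 members from the mean of their genotype and sex in each of 47 libraries, as log2 of CPM, with libraries ordered from the highest to the lowest Hspa5; ER members are above the line and heat-inducible members below it. Hsp90b1, Dnajb11, Dnajc3, Hspa8 and Hsph1 run from red to blue with Hspa5, Dnajc10 runs from blue to red, and Hspa1a, Hspa1b and Hspb1 have strong colours in mice spread over the whole order.

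The values were also computed with the number in the library name, whose meaning the labels do not give, in place of sex. With genotype and this number taken out, the spread of Hspa5 was 0.204 instead of 0.342, and r between Hspa5 and Hsp90b1 was 0.95, with Dnajb11 0.91, with Dnajc3 0.89, with Dnajc10 -0.65 and with Hspa8 0.84. With the plate column taken out instead, the spread was 0.353 and these values were 0.97, 0.95, 0.92, -0.84 and 0.9. In females and males alone, r between Hspa5 and Hsp90b1 was 0.97 and 0.97. Of 10 marker lists and the total counts, 2 lists moved with Hspa5: astrocyte markers at r of 0.52 and rho of 0.4 (permutation p of 1.9e-04 and 0.00546, adjusted p over the 11 of 0.00192 and 0.03) and endothelial and mural markers at r of 0.5 and rho of 0.52 (permutation p of 3.5e-04 and 2.6e-04, adjusted p of 0.00192 and 0.00286). Without the 2 farthest libraries r was 0.4 for each. For total counts r was 0.02 (permutation p of 0.87), and for MSN markers -0.21 (permutation p of 0.15). The part of these measures in the shared movement was not tested.

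**Figure D5:**
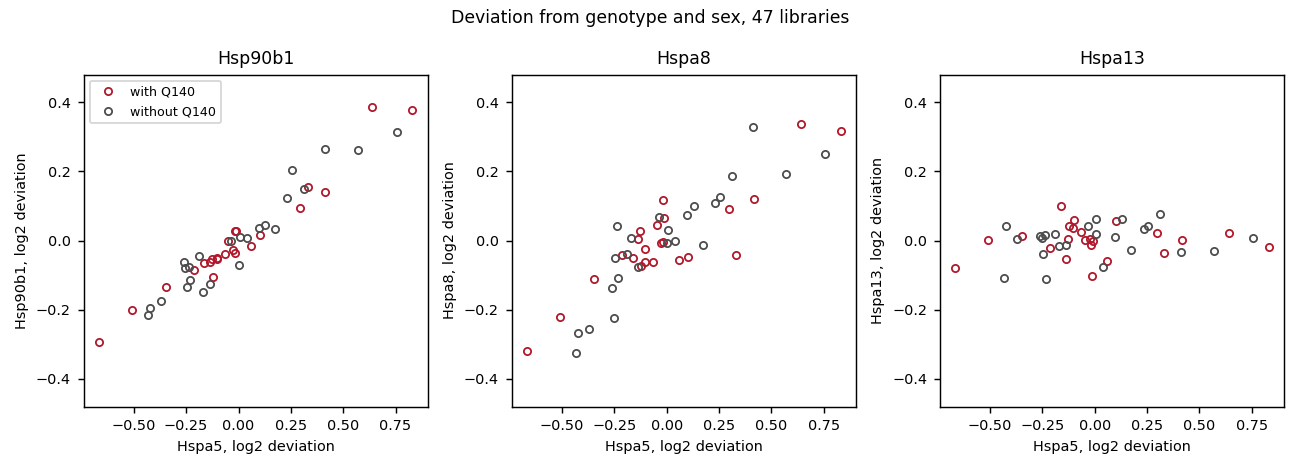
Deviation from genotype and sex of Hsp90b1, Hspa8 and Hspa13 against that of Hspa5, as log2 of CPM, each point 1 of 47 libraries, in red with and in grey without Q140. Hsp90b1 and Hspa8 rise along Hspa5 with r of 0.97 and 0.88, and Hspa13 stays between the same levels at r of 0.14, with red and grey points along the whole axis in all 3 panels.

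Promoters are shown for the members that carry the pattern between mice. RefSeq windows of 250 bases before to 50 after the gene start (GRCm38.p6) were found for 65 of the member symbols. The ER stress response element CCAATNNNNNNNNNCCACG, through which the unfolded protein response acts, was searched on both strands, and this motif was chosen after the levels had been seen. It occurred in 3 of the 65 windows, 4.62%, against 0.137% of the windows of all 27025 genes in the table. The 3 were Hspa5, Hsp90b1 and Dnajc3, which went together between mice. Dnajb11, which also went with Hspa5, had no match in its window. The windows lie at chr2:34771840-34772139 on the plus strand for Hspa5, chr10:86705395-86705694 on the minus strand for Hsp90b1 and chr14:118937682-118937981 on the plus strand for Dnajc3, and capitals mark the matches. The Hsp90b1 window holds 2 of them, and the second is printed as its reverse complement.
Hspa5: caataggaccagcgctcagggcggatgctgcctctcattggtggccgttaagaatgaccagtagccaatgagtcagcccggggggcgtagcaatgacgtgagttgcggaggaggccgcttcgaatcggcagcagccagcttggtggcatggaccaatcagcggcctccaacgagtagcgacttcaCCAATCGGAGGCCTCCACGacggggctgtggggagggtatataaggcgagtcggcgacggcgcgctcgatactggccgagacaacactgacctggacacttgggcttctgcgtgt
Hsp90b1: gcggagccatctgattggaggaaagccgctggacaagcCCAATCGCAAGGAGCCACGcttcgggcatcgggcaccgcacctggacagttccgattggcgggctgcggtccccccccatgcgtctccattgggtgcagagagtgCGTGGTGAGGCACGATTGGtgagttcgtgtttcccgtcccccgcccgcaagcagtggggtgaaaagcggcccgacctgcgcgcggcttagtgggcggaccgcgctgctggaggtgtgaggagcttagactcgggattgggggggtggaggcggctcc
Dnajc3: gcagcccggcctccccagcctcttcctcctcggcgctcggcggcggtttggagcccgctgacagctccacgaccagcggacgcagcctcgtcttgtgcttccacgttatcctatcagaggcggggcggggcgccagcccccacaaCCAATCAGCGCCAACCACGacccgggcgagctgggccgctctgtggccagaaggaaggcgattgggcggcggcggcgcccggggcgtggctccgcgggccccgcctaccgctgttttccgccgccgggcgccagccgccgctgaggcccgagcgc

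Heat shock elements, the binding sites of heat shock factors, were searched as at least 2 alternating units, GAANNTTC or TTCNNGAA. A match was found in 18 of the 65 member windows, 27.7%, against 17.0% of all genes. With 3 units, the shorter motif extended by NNGAA or NNTTC so that the units alternate, 4 member windows matched, 6.15%, against 0.662% of all genes. These were Hspd1, Hspe1, Hsph1 and Dnajb6, of which Hspd1 and Hspe1 lie head to head and share most of 1 window. Hspd1 and Hsph1, both heat-inducible and neither past the threshold in a Q140 comparison, are printed with their matches in capitals, from chr1:55087883-55088182 and chr5:149636287-149636586, both on the minus strand.
Hspd1: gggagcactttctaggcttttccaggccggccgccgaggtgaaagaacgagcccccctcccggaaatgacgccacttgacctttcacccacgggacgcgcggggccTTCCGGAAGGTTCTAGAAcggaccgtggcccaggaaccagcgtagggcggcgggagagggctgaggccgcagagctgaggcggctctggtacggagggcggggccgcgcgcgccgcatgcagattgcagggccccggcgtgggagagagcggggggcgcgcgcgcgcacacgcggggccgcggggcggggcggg
Hsph1: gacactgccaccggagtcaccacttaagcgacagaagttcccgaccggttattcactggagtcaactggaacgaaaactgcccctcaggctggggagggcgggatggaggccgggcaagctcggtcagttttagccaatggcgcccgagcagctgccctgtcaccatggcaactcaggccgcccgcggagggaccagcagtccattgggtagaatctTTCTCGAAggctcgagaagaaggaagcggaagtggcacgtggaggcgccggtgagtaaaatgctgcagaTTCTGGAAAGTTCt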

How the data were processed

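Per the labels' protocols, RNA was extracted with a Qiagen RNeasy kit and made into stranded Illumina TruSeq libraries. Per the submitters' processing notes, HTSeq 0.12.3, STAR 2.7.5c and SAMtools 1.10 were used with the builds GRCm38 and mm10, and the strand setting of counting is not given in the sources used here. The authors deposited raw counts per gene, 1 column per library, and FPKM values of the same libraries, which divide by gene length and library total.

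Counts of 47 libraries were fitted with edgeR 4.0.16 in R 4.3.3, as a robust quasi-likelihood model with TMM scaling, a coefficient per genotype group and a sex term. The filter filterByExpr kept 19193 genes, and p-values were adjusted over all of them by Benjamini and Hochberg, with a threshold of 0.05. The members and gene lists were chosen with earlier results of these data known. Full values are given for members past the threshold in at least 2 Q140 comparisons or in the sex comparison, for the 5 most abundant members and the heat-inducible genes, and partner genes are named where they passed in at least 2 Q140 comparisons. Other members named with values were chosen after their values were seen. Alternatives were RLE scaling, DESeq2 1.42.0, limma 3.58.1 on log2(FPKM + 0.1), no filter, no sex term, a replicate block, the plate column, only the groups compared, each sex alone and each library left out. The library name number in place of sex, and the fit without WT male 1 and Ccdc82-/- male 1, were added after seeing the data. The fit was tested on simulated data. Deviations are log2(CPM + 0.5) minus the fitted genotype and sex. Nothing in the labels ties replicates to litters, so p-values, permutation p-values among them, measure the spread between these mice as if each were independent. Outside the fit with the library name number, they do not account for likeness between mice that share a number. Intervals do not account for PCR duplicates. Gene positions are from GENCODE and promoters from RefSeq.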

Additional observations from a re-analysis of the deposited data

Results flagged for a closer look

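The levels of 42 named members in the 6 genotype groups gave 252 groups of values, and in 18 of them the highest or lowest mouse lay far from the rest of its group by Dixon's test. Chance alone flags about 1 in 20 groups, or 13 of 252. Q140 Ccdc82-/- female 1 stood apart 5 times. It had 140 CPM of Cct6a beside 116 to 125 CPM in the other mice of its group, 5.18 CPM of Hspa1a beside 1.9 to 3.02, 7.42 CPM of Hspa1b beside 1.31 to 2.88, 4.37 CPM of Hspb1 beside 1.17 to 2.14, and 131 CPM of Dnajb14, below the 138 to 142 of the others. Q140 male 2 stood apart 4 times, with 388 CPM of Hsp90b1 beside 289 to 327, 9.93 CPM of Hspa1b beside 1.92 to 4.24, 259 CPM of Hspa4l beside 196 to 226 and 3.71 CPM of Hspb1 beside 1.42 to 2.13.

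WT female 1 was high in Cct6a, at 121 CPM beside 104 to 110, and in Hsp90ab1, at 1470 CPM beside 1240 to 1340. Ccdc82-/- female 1 was low in Cct2, at 103 CPM beside 112 to 117, and in Hspa13, at 48.1 CPM beside 51.3 to 53.3. The library of Ccdc82-/- male 1, which also had the highest choroid plexus markers, held 8.57 CPM of Hspa1a beside 1.84 to 4.13. Ccdc82+/- male 4 had 6.85 CPM of Hspa1b beside 0.938 to 3.39. Lower than their groups were Dnajc18 in Q140 Ccdc82+/- female 4, at 100 CPM beside 106 to 109, Dnajc7 in Q140 Ccdc82-/- female 2, at 163 CPM beside 177 to 181, and Hspb8 in WT male 3, at 8.54 CPM beside 10.1 to 11.3.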

How the results depend on the processing

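Among the calls in the Q140 and sex comparisons for which alternatives were computed per member, none changed direction; partner genes and members not called were not followed this way. Of the counts of members called, the 21 that rose in Q140 against WT became 10 in females only and 32 on FPKM, and 19 to 23 with single mice left out; the 6 that fell became 3 in males only and 5 to 6 with single mice left out. On the Ccdc82+/- background the 17 that rose became 5 in females only, 11 in males only, 35 on FPKM and 13 to 18 with single mice left out. The 7 that fell became 11 with the library name number, 3 in females only, 4 on FPKM and 5 to 7 with single mice left out. On the Ccdc82-/- background the 16 that rose became 4 with the library name number, 10 with only the groups compared, 6 in females only, 4 in males only, 34 on FPKM and 11 to 18 with single mice left out. The 6 that fell there became 10 with the library name number, 3 on FPKM and 5 to 9 with single mice left out. In the interaction with Ccdc82-/- the library name number gave 1 call. Between the sexes, no member was higher in males, but 2 were without WT male 1 and Ccdc82-/- male 1, 1 with DESeq2, 5 on FPKM and 0 to 2 with single mice left out. The 8 lower in males became 5 with no filter, 5 with the plate column, and 5 to 16 with single mice left out. The causes of these shifts were not tested, beyond the fewer mice in fits of 1 sex.

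With the replicate block, 21 members rose and 6 fell in Q140 against WT, 17 and 7 on the Ccdc82+/- background, and 15 and 6 on the Ccdc82-/- background. Mice of the same sex and replicate number in different groups showed no pairing, with a median correlation of -0.0135 over 115 pairs and a range of -0.431 to 0.505. Over 38 pairs with the same library name number the median was 0.0814, against -0.00394 over 882 other pairs. Low members limit precision: the SE of the log2 fold change of Hspa1b, at a mean of 1.25 FPKM, was 0.451.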

Other observations

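Genes outside the chaperone families also followed Hspa5 from mouse to mouse, and they were named after their values had been seen. Deviations from genotype and sex were compared between Hspa5 and each of the other 19192 tested genes over 47 libraries, as a description. The median Pearson's r was -0.01, and 158 genes, 0.823%, had an r of at least 0.8, among them 9 of the 74 other members, 12.2%. The closest were Pdia4, a disulfide isomerase of the ER, with r of 0.98, and Xbp1, a transcription factor of the unfolded protein response, with r of 0.98. After Hsp90b1 came the secreted ER protein Manf with r of 0.96, the disulfide isomerases Pdia6 with r of 0.96 and Pdia3 with r of 0.95, Sdf2l1 with r of 0.95, then Ncoa5, a nuclear receptor coactivator, and Chordc1, a cytosolic Hsp90 partner, both with r of 0.94, and the lectin chaperone Calr with r of 0.93. Hyou1, the large Hsp70 of the ER, had r of 0.93, Creld2 had r of 0.92 and Herpud1, a factor of ER-associated degradation, had r of 0.91. The 21 genes with r of at least 0.9 also held Mlec and Bicd2 with r of 0.92, Zbtb40 with r of 0.91, and Fxr1, Papola and Etv5 with r of 0.9, so that not all belong to the ER. All these values share the same libraries and the same correction for genotype and sex.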
